A study of Mus musculus with 12 samples.

Results

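Branched-chain amino acid breakdown is represented here by 10 genes, namely Bcat2, Bckdha, Bckdhb, Dbt, Ivd, Mccc1, Acadsb, Hibch, Pccb and Mut. These genes were chosen by name with earlier results of these data known, which can raise the counts of genes called. Each had exactly 1 row among the 39248 rows of the deposited expression table, so that all 10 of 10 were found and all 10 were tested. The cells were 3T3-L1 adipocytes, fat-storing cells obtained in culture from a mouse preadipocyte line. In the knockdown arm the siRNA was directed at the mRNA of Zfp407, a gene for a zinc finger protein, in 6 libraries from separate electroporations, 3 with each of 2 siRNAs. The control arm had received a control siRNA in 6 libraries, also from separate electroporations. In both arms 0.75 nmol of siRNA was given 2 days after differentiation. The table does not mark which siRNA a knockdown column received, so the 6 were treated as 1 arm, and all libraries come from 1 cell line, so p-values measure the spread between electroporations (and between the siRNAs in the knockdown arm).

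Leucine, isoleucine and valine share the opening steps of their breakdown. An aminotransferase removes the amino group, and a mitochondrial dehydrogenase complex then removes carbon dioxide from the resulting keto acid and attaches coenzyme A in an irreversible step, which a kinase inhibits and a phosphatase restores. The 3 routes then part: leucine ends in acetyl-CoA and acetoacetate, valine in propionyl-CoA, and isoleucine in both acetyl-CoA and propionyl-CoA, which carboxylation and a cobalamin-dependent rearrangement turn into succinyl-CoA. Adipocytes are known to raise this pathway as they differentiate and to use its products for oxidation and for fatty acid synthesis.

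Zfp407 itself checks the labels. Its FPKM (the authors' fragment level, scaled to transcript length and library size) was 1.60, 1.72 and 2.13 as lowest, median and highest value in knockdown libraries, against 2.70, 2.76 and 3.16 in control libraries, without overlap. The knockdown was thus partial, with a mean 36.9% lower (limma adjusted p = 8.0e-05). In the authors' deposited table Zfp407 was not marked significant (q = 0.0734). Absolute depth is unknown, but by the worth of 1 read in low rows relative depths ranged over 0.880 to 1.15, with control library 1 set to 1. Mitochondrial transcripts took 19.4% to 32.8% of summed FPKM in knockdown and 22.7% to 25.3% in control libraries, with the highest share in knockdown library 6. Rows with names of short RNAs took 38.7% to 44.3% in knockdown and 36.8% to 39.3% in control libraries, and 5 of 6 knockdown libraries lay above every control. That class could also take in mitochondrial rRNA and tRNA rows, so its share and the mitochondrial share may overlap. Adipocyte markers (12 of 12 with a row) summed to between 18292 and 23242 FPKM in knockdown and between 19985 and 24042 FPKM in control libraries. Those of preadipocytes and fibroblasts (11 of 11) summed to between 3719 and 4674 FPKM in knockdown and between 4198 and 4782 FPKM in control libraries. In that list the mean was highest for Vim (1355 FPKM in knockdown and 1369 FPKM in control libraries) and lowest for Cd34 (0.211 and 0.188 FPKM). Macrophage markers (6 of 7 with a row) summed to between 3.31 and 4.58 FPKM in knockdown and between 3.78 and 4.54 FPKM in control libraries. Of these, Emr1, Ptprc, Csf1r and Itgam averaged under 0.1 FPKM, while Cd14 averaged 3.25 FPKM in knockdown and 3.41 FPKM in control libraries and Lyz2 0.694 and 0.627 FPKM. Transcripts of the adipocyte list and of the preadipocyte and fibroblast list were thus present in both arms, and the sums do not tell which cells held them. In such bulk samples fewer cells of a type and less RNA per cell cannot be told apart.

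Transcripts of this pathway were lower after Zfp407 knockdown. Of the 10 genes, 9 fell, none rose and Dbt did not pass. Hibch fell by 0.74 on the log2 scale, Acadsb by 0.69, Bckdhb by 0.56 and Pccb by 0.54. The median log2 fold change of the 10 genes was −0.45, against −0.05 over all 14706 rows tested. The test was limma on log2(FPKM + 1) over all rows with a mean of at least 1 FPKM, and a gene was called where the Benjamini-Hochberg adjusted p was under 0.05. By that rule 24.8% of all rows and 29.0% of rows with a protein-coding symbol were lower in the knockdown arm, and 11.6% of all rows were higher. Of all calls 68.1% were lower, or 57.7% with each library centred on its median, where 8 of the 10 genes fell. With mitochondrial and short-RNA rows removed and the libraries rescaled, 8 of the 10 genes also fell, Bcat2 no longer among them (adjusted p = 0.0929). The arms did not overlap, with every knockdown library below every control library, for 6 of the 10 genes, against 13.9% of all rows tested.

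A stricter test asked whether a change was larger than a fold of 1.2. It kept 4 of the 10 genes, namely Bckdhb, Hibch, Pccb and Mut, against 3.69% of all rows lower by the same test. The reason for that test is a property of the deposited values. In low rows where single reads can be recognised, the worth of 1 read differed between the arms in 29.6% of 1090 rows, with a 90th percentile of 0.220 on the log2 scale, while splits within an arm gave 2.14% of rows in knockdown and 1.71% in control libraries. That measure comes from rows averaging under 0.5 FPKM, and whether it holds for the rows of the 10 genes was not tested. Rows whose log2 difference reached 0.5 had been dropped beforehand, so neither the shares nor the percentile include such differences. A change of about 0.220 in a single row, such as that of Bcat2, cannot be told apart from this difference between the arms. In the authors' deposited table all 10 genes had a log2 fold change below 0, 5 had an unadjusted p-value under 0.05, and 1 of them, Bckdhb, was marked significant (q = 0.00217), as were 1.83% of the rows tested here.

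The 10 genes lie apart in the genome, by the loci of the table, which match GRCm38. Bcat2 (chromosome 7, 45567795 to 45589734), Bckdha (chromosome 7, 25629852 to 25658761) and Acadsb share a chromosome, as do Bckdhb (chromosome 9, 83925150 to 84124239) and Pccb (chromosome 9, 100982032 to 101034914), and Dbt (chromosome 3, 116513070 to 116549979) and Mccc1 (chromosome 3, 35955496 to 36053547). Ivd lies on chromosome 2 (118861954 to 118882965), Hibch on chromosome 1 (52845013 to 52922090) and Mut on chromosome 17 (40923051 to 40963885). Bckdha, Ivd and Pccb had a locus to themselves, and Bcat2, Bckdhb, Dbt, Mccc1, Hibch and Mut shared theirs with 1 or 2 other rows, so that reads of overlapping transcripts may have been divided between them.

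**Figure D1:**
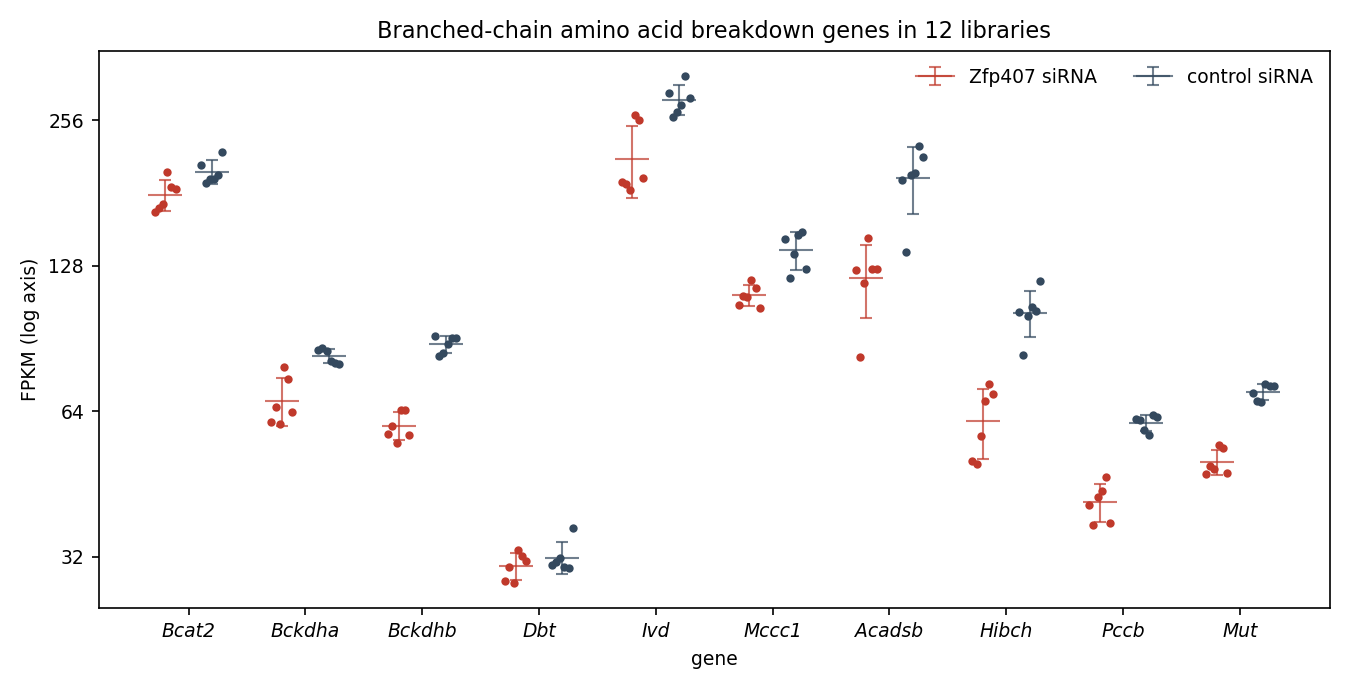
FPKM of the 10 genes on a log axis, in pathway order. Each point is 1 library, with Zfp407 siRNA libraries in red at left and control siRNA libraries in dark grey at right of each gene, and the bars give the mean ± SD (n = 6 each). The arms are separate for Bckdha, Bckdhb, Mccc1, Hibch, Pccb and Mut, and for Dbt the ranges overlap (28.3 to 33.1 FPKM in knockdown and 30.3 to 36.8 FPKM in control libraries).

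The shared steps differed among themselves. Bcat2, the mitochondrial aminotransferase that opens the pathway, had 166, 178 and 201 FPKM as its lowest, median and highest value in knockdown libraries, against 190, 196 and 220.0 FPKM in control libraries. The lowest control exceeded 5 of 6 knockdown libraries, while library 4 of the knockdown arm lay above the control mean. This gave a log2 fold change of −0.16 (SE 0.05, limma adjusted p = 0.0409), the smallest among the genes called. The call of Bcat2 was lost with centring (adjusted p = 0.0525) and when any of knockdown libraries 1, 2 and 3 or of control libraries 1, 3, 4, 5 and 6 was left out (adjusted p from 0.0511 to 0.0876).

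Bckdha and Bckdhb encode the alpha and beta subunits of the decarboxylase of the branched-chain keto acid dehydrogenase complex, which carries out the irreversible step. Bckdha had 60.4, 64.6 and 79.0 FPKM (lowest, median and highest) in knockdown libraries, against 80.1, 83.5 and 86.6 FPKM in control libraries. Every knockdown library was below every control library, although the highest of them, library 4, came close to the lowest control. The log2 fold change of Bckdha was −0.31 (SE 0.07, limma adjusted p = 0.00293), and it did not pass against a fold of 1.2 (adjusted p = 1.00). Bckdhb had 55.0, 58.6 and 64.6 FPKM in knockdown libraries, against 83.5, 89.5 and 91.5 FPKM in control libraries. These ranges lay far apart, and the knockdown mean was 32.3% lower. On the log2 scale Bckdhb fell by 0.56 (SE 0.05, with limma adjusted p = 3.2e-06, and 9.8e-04 against a fold of 1.2).

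Dbt encodes the transacylase that forms the core of the same complex. It had 28.3, 30.9 and 33.1 FPKM in knockdown libraries, against 30.3, 31.0 and 36.8 FPKM in control libraries. The ranges overlapped, and 2 of 6 knockdown libraries lay below the lowest control. The log2 fold change of −0.06 (95% confidence interval −0.17 to 0.06, limma adjusted p = 0.460) did not pass. The interval leaves room for a fall of up to 0.17 on the log2 scale. A shift of that size lies outside the interval of Bckdhb (−0.66 to −0.45).

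The promoters that RefSeq annotates for the 2 decarboxylase subunits are shown, with that of Hibch, the gene with the largest fall. RefSeq promoters (build GRCm38.p6, 250 bases before the start site to 50 after it) were at hand for 8 of the 10 genes, all but Dbt and Mut. Capitals mark exact matches on either strand to the CCAAT box (CCAAT) or the GC box (GGGCGG).
Bckdha, chr7:25658712-25659011, minus strand: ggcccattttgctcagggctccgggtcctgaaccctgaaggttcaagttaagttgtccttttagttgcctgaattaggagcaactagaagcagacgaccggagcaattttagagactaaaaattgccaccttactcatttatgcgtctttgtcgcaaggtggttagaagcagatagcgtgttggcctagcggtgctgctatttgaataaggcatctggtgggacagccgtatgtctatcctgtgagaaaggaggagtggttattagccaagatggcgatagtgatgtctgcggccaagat
Bckdhb, chr9:83924887-83925186, plus strand: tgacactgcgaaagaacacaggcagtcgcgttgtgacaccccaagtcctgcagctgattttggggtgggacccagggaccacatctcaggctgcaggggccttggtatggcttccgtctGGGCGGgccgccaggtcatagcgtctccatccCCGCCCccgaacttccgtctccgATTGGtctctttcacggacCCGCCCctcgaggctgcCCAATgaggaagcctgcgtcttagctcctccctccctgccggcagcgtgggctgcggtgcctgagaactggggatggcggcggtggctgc
Hibch, chr1:52844788-52845087, plus strand: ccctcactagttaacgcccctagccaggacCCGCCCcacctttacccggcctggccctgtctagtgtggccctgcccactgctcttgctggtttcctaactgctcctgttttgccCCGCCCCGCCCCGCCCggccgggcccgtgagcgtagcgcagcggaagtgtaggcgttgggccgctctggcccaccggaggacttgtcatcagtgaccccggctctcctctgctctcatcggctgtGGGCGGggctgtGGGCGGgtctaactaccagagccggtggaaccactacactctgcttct

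The Bckdha promoter held no match and was 48.0% G and C, while that of Bckdhb held 2 CCAAT boxes and 3 GC boxes and was 65.0% G and C. The promoter of Hibch held 6 GC boxes, 3 of which overlap by 1 base each, and was 66.3% G and C. Among the 8 promoters, 3 held a CCAAT box (Bckdhb, Ivd and Mccc1) and 4 a GC box (Acadsb, Bckdhb, Hibch and Mccc1), against 37.4% and 35.7% of all 32851 promoters. None of the 8 held the E-box CACGTG (7.15% of all promoters), the cyclic AMP response element TGACGTCA (1.79%), the ETS site CCGGAAGT (3.89%), the palindromic NRF1 site (0.971%), the estrogen-related receptor site TCAAGGTCA (0.423%) or the direct repeat bound by PPAR and RXR (0.0396%). The promoter of Pccb, which fell by 0.54 on the log2 scale, held no match and was 54.3% G and C. That of Mccc1, which fell by 0.30, held 4 matches and was 50.7% G and C. Whether motif content goes with the size of the fall was not tested. Motifs were searched on both strands, and the letters say nothing of what binds there.

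In the leucine branch both genes fell. Ivd, isovaleryl-CoA dehydrogenase, had 184, 193 and 263 FPKM in knockdown libraries, against 261, 280.2 and 316 FPKM in control libraries. Knockdown library 4 (263 FPKM) reached into the control range and library 5 (257 FPKM) came close to it, while the other 4 lay between 184 and 195 FPKM. Ivd fell by 0.42 on the log2 scale (SE 0.10, limma adjusted p = 0.00576), without passing against a fold of 1.2 (adjusted p = 0.545). Mccc1, which encodes the biotin-carrying subunit of 3-methylcrotonyl-CoA carboxylase, had 105, 111 and 120 FPKM in knockdown libraries, against 121, 141 and 150 FPKM in control libraries. The arms did not overlap but nearly touched, and the spread was wider in the control arm (coefficient of variation 5.00% in knockdown and 8.90% in control libraries). For Mccc1 the log2 fold change came to −0.30 (SE 0.06, limma adjusted p = 0.00191), which did not pass against a fold of 1.2 (adjusted p = 1.00).

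In the isoleucine branch, Acadsb, the short/branched chain acyl-CoA dehydrogenase, had 83.0, 126 and 146 FPKM in knockdown libraries, against 137, 199 and 227 FPKM in control libraries. The lowest library of each arm was its library 2, and 5 of 6 knockdown libraries lay below the lowest control. Acadsb had a log2 fold change of −0.69 with a wide interval (−0.99 to −0.38, limma adjusted p = 0.00239), and it missed the threshold against a fold of 1.2 (adjusted p = 0.0788). The Acadsb row carries a limit of its own. The gene lies on chromosome 7 at 131410601 to 131448944 (GENCODE M21, GRCm38), but its row in the table has a locus of 2962 kb that 39 rows share, among which the authors' estimation had to divide reads.

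In the valine branch, Hibch, the hydrolase that frees hydroxyisobutyrate from coenzyme A, showed the largest fall of the 10 genes. It had 49.9, 62.2 and 73.0 FPKM in knockdown libraries, against 83.9, 103 and 119 FPKM in control libraries. All 6 knockdown libraries lay below all 6 controls, and the mean was 40.3% lower. Hibch had a log2 fold change of −0.74 (SE 0.11, limma adjusted p = 2.57e-04, and 0.0105 against a fold of 1.2). Only 1.89% of all rows tested had a lower log2 fold change.

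Both genes of propionyl-CoA use fell clear of the control range. Pccb, the beta subunit of propionyl-CoA carboxylase, had 37.3, 41.8 and 46.9 FPKM in knockdown libraries, against 57.1, 61.5 and 62.8 FPKM in control libraries. Pccb fell by 0.54 on the log2 scale (SE 0.06, limma adjusted p = 1.7e-05). Mut, methylmalonyl-CoA mutase, which makes succinyl-CoA with cobalamin as cofactor, had 47.6, 49.1 and 54.6 FPKM in knockdown libraries, against 66.8, 71.1 and 73.1 FPKM in control libraries. Mut fell by 0.48 on the log2 scale (SE 0.04, limma adjusted p = 7.3e-06). Both passed against a fold of 1.2 (adjusted p = 0.00500 for Pccb and 0.00598 for Mut), and these were among the tightest of the 10 genes, with coefficients of variation in control libraries of 3.76% and 3.81%.

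By level, the 10 genes kept nearly the same order in both arms. On the FPKM scale, which is per length, Ivd had the highest mean (213 FPKM in knockdown and 282.5 FPKM in control libraries), followed by Bcat2 (180 and 200 FPKM), Acadsb and Mccc1. Dbt had the lowest (30.7 and 31.9 FPKM). In knockdown libraries the neighbours in this order that overlapped were Ivd and Bcat2, Acadsb and Mccc1, Bckdha and Hibch, and Hibch and Bckdhb. In control libraries they were Bcat2 and Acadsb, Acadsb and Mccc1, Hibch and Bckdhb, and Bckdhb and Bckdha. Hibch stood below Bckdha in knockdown libraries and above it in control libraries. The control mean of each gene lay above that of at least 72.7% of the rows tested.

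The knockdown libraries were not alike. The median over the 10 genes of the difference from the control mean, in log2(FPKM + 1), was −0.55, −0.53, −0.51, −0.28, −0.31 and −0.54 in knockdown libraries 1 to 6, against 0.03, −0.08, −0.03, −0.01, 0.04 and 0.04 in control libraries 1 to 6. Knockdown libraries 4 and 5 thus lay nearest to the controls. Library 4 had the highest value of the knockdown arm for 8 of the 10 genes and library 5 for the other 2. The median of all rows tested was −0.01 and −0.02 in these libraries and between −0.08 and −0.06 in the other 4 of the arm. Their Zfp407 levels of 1.65 and 1.60 FPKM were among the lowest 3 of the arm, and the part of this difference in the results was not tested. Leaving out each library in turn, 8 or 9 of the 10 genes fell.

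**Figure D2:**
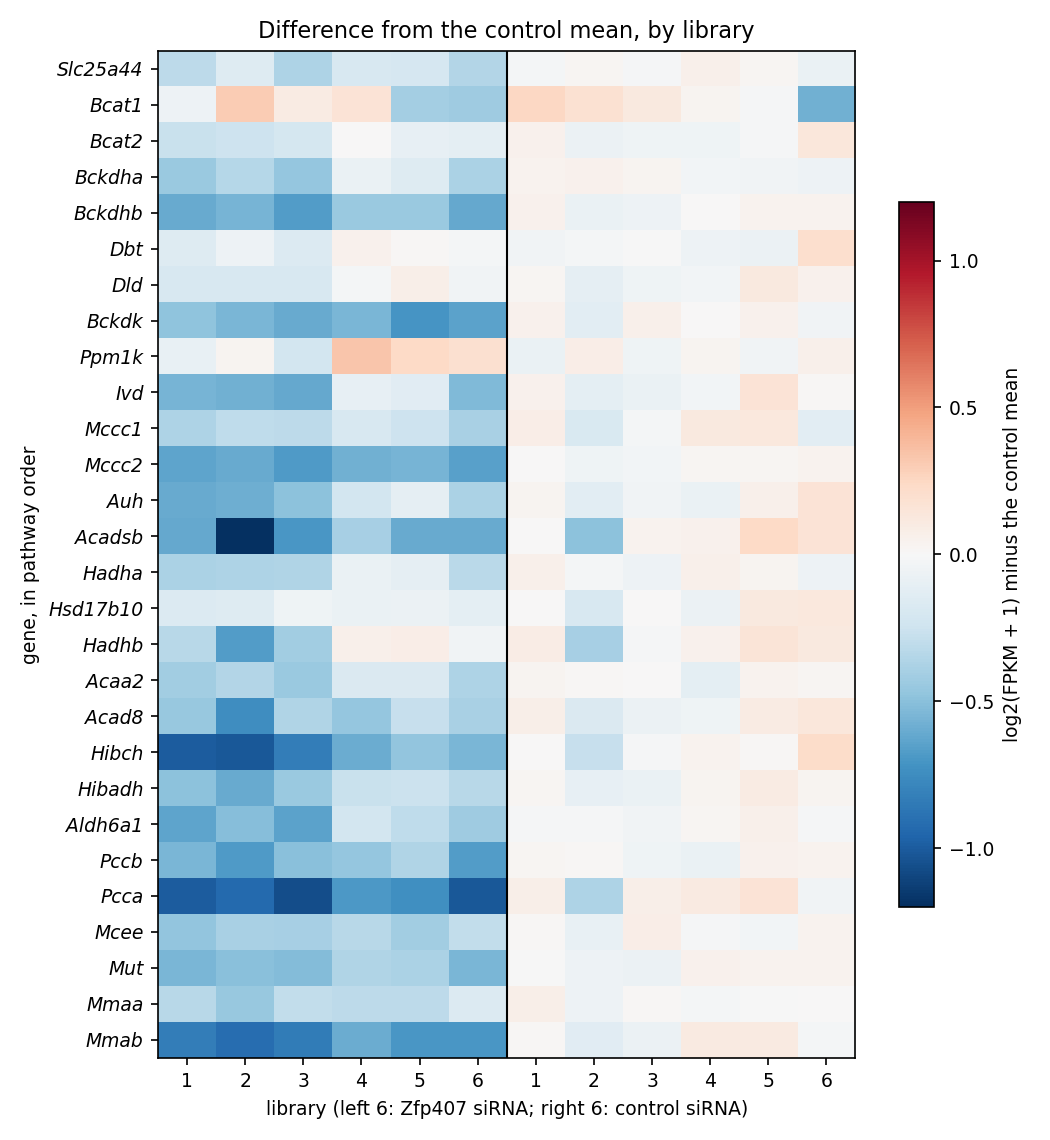
Difference of log2(FPKM + 1) from the mean of the control libraries, for the 10 genes and 18 of the 19 other tested genes of the pathway (rows, in pathway order) in each library (columns, the 6 Zfp407 siRNA libraries left of the line and the 6 control siRNA libraries right of it). Blue marks values below the control mean, and the blue is paler in knockdown libraries 4 and 5 for Bckdha and Ivd.

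Subunits of 1 enzyme did not shift by the same amount. For 7 pairs of subunits or partners the difference in log2(FPKM + 1) was compared between the arms with an exact two-sided permutation test, whose smallest possible p is 0.00216, and p-values were adjusted over the 7. A scaling of a whole library cancels in such a ratio, but the difference between the arms in the worth of 1 read does not, and it can enter from both genes. The log2 ratio of Bckdhb to Dbt was 0.94 ± 0.05 in knockdown and 1.44 ± 0.11 in control libraries (SD, n = 6 each), a difference of −0.50 (exact permutation p = 0.00216, adjusted 0.00379). Its values lay between 0.85 and 0.99 in knockdown and between 1.28 and 1.55 in control libraries, with no overlap. The ratio of Bckdha to Bckdhb was 0.17 ± 0.07 in knockdown and −0.08 ± 0.10 in control libraries, a difference of 0.24 (exact permutation p = 0.00216, adjusted 0.00379). That of Bckdha to Dbt was 1.11 ± 0.09 in knockdown and 1.36 ± 0.13 in control libraries, a difference of −0.26 (exact permutation p = 0.00649, adjusted 0.00909). These smaller differences are close to 0.220, the 90th percentile of the difference in the worth of 1 read. That percentile is not its largest value, and rows whose difference reached 0.5 did not enter it.

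Both biotin carboxylases were also unequal between their subunits. Mccc2, which encodes the other subunit of 3-methylcrotonyl-CoA carboxylase, averaged 25.6 ± 0.858 FPKM in knockdown and 39.8 ± 0.981 FPKM in control libraries (SD, n = 6 each; log2 fold change −0.62, limma adjusted p = 3.3e-08). The log2 ratio of Mccc1 to Mccc2 was 2.08 ± 0.05 in knockdown and 1.76 ± 0.12 in control libraries, a difference of 0.31 (exact permutation p = 0.00216, adjusted 0.00379). Pcca, the alpha subunit of propionyl-CoA carboxylase, averaged 41.7 ± 4.69 FPKM in knockdown and 79.1 ± 9.95 FPKM in control libraries (log2 fold change −0.91, limma adjusted p = 2.0e-05), in a row that shares its locus with 5 others. The log2 ratio of Pccb to Pcca was 0.00 ± 0.13 in knockdown and −0.37 ± 0.21 in control libraries, a difference of 0.37 with overlapping ranges (exact permutation p = 0.0108, adjusted 0.0126). What part the worth of 1 read, which differs between the arms, has in the differences of 0.31 and 0.37 was not tested. Bcat1, the cytosolic aminotransferase, averaged 3.17 ± 0.853 FPKM in knockdown and 3.32 ± 0.781 FPKM in control libraries, and the ratio of Bcat2 to Bcat1 did not pass (difference −0.10, exact permutation p = 0.636).

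**Figure D3:**
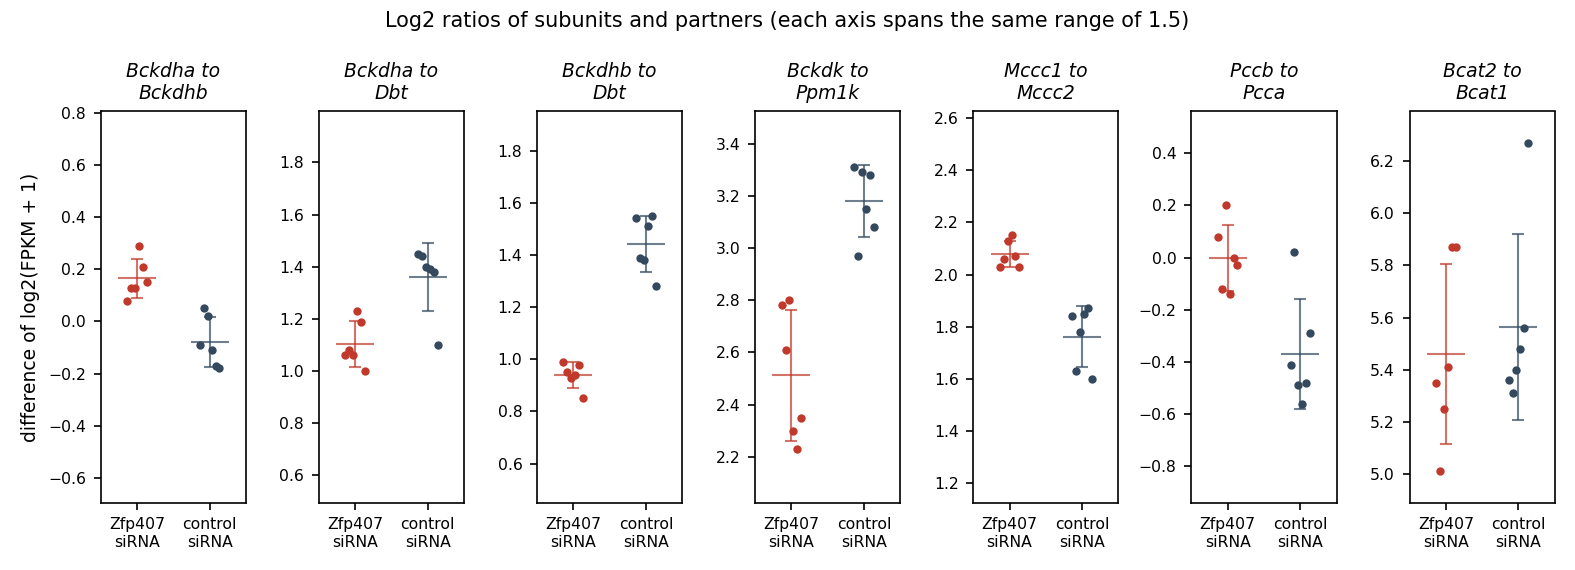
Log2 ratio of 2 genes, as a difference of log2(FPKM + 1), for 7 pairs, with 1 point for each library, Zfp407 siRNA left of control siRNA in each panel, and bars for the mean ± SD (n = 6 each). The arms do not overlap for Bckdha to Bckdhb, Bckdhb to Dbt, Bckdk to Ppm1k and Mccc1 to Mccc2.

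The enzymes that set the activity of the dehydrogenase complex also differed. Bckdk, the kinase that phosphorylates and inhibits it, averaged 42.6 ± 2.42 FPKM in knockdown and 64.6 ± 3.34 FPKM in control libraries (SD, n = 6 each; log2 fold change −0.59, limma adjusted p = 2.0e-06), and passed against a fold of 1.2. Ppm1k, the phosphatase that restores it, averaged 6.71 ± 1.11 FPKM in knockdown and 6.23 ± 0.332 FPKM in control libraries (log2 fold change 0.08, limma adjusted p = 0.490). Knockdown libraries 4 to 6 (8.12, 7.52 and 7.24 FPKM) lay above the highest control (6.65 FPKM), and libraries 1 to 3 (5.80, 6.38 and 5.20 FPKM) did not. The log2 ratio of Bckdk to Ppm1k was 2.51 ± 0.25 in knockdown and 3.18 ± 0.14 in control libraries, a difference of −0.67 (exact permutation p = 0.00216, adjusted 0.00379). Dld, the dehydrogenase that this complex shares with the pyruvate and 2-oxoglutarate complexes, had a log2 fold change of −0.10 (limma adjusted p = 0.205). Dld and Dbt thus both missed the threshold, while the genes of the decarboxylase subunits and the kinase fell. Klf15, a transcription factor known to act on this pathway in muscle, averaged 20.1 ± 1.73 FPKM in knockdown and 25.3 ± 1.17 FPKM in control libraries (log2 fold change −0.32, limma adjusted p = 6.7e-04), without passing against a fold of 1.2 (adjusted p = 0.941).

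Most other genes of the pathway fell as well. Of 23 listed, 21 had a row and 19 were tested, and 14 of these fell and none rose, against 24.8% of all rows lower, with a median log2 fold change of −0.33. Bcat1, Dld, Ppm1k, Hsd17b10 and Hadhb did not pass. Echs1 and Acat1 had no row of their own, each being joined with a neighbour, and Ehhadh and Abat averaged under 1 FPKM. Mmab, which makes the cobalamin cofactor that Mut uses, averaged 27.6 ± 2.30 FPKM in knockdown and 47.5 ± 3.30 FPKM in control libraries (log2 fold change −0.76, limma adjusted p = 2.0e-06). Mcee, the epimerase between Pccb and Mut in the route, fell by 0.38. In the valine branch, Aldh6a1, methylmalonate semialdehyde dehydrogenase, fell by 0.46, Acad8, isobutyryl-CoA dehydrogenase, by 0.45 and Hibadh, hydroxyisobutyrate dehydrogenase, by 0.40 on the log2 scale. In the leucine branch, Auh, a hydratase, fell by 0.40. Acaa2, a thiolase that also serves fatty acid oxidation, fell by 0.32.

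By branch, with the 10 genes and the others counted together, all 6 tested genes of propionyl-CoA use, all 5 of leucine and all 4 of valine fell. Of all rows tested, 24.8% were called lower. Among the genes of propionyl-CoA use, the row of Mmaa, which encodes a protein that helps load cobalamin, was marked as failed in the authors' deposited table. Of the isoleucine branch 3 of 5 fell, and of the enzymes of the shared steps 3 of 6. Against a fold of 1.2, Bckdk, Mccc2, Pcca and Mmab passed among the other genes, and 4 of the 6 genes of propionyl-CoA use passed. By that test 3.69% of all rows were lower. Differences between branches were not tested.

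**Figure D4:**
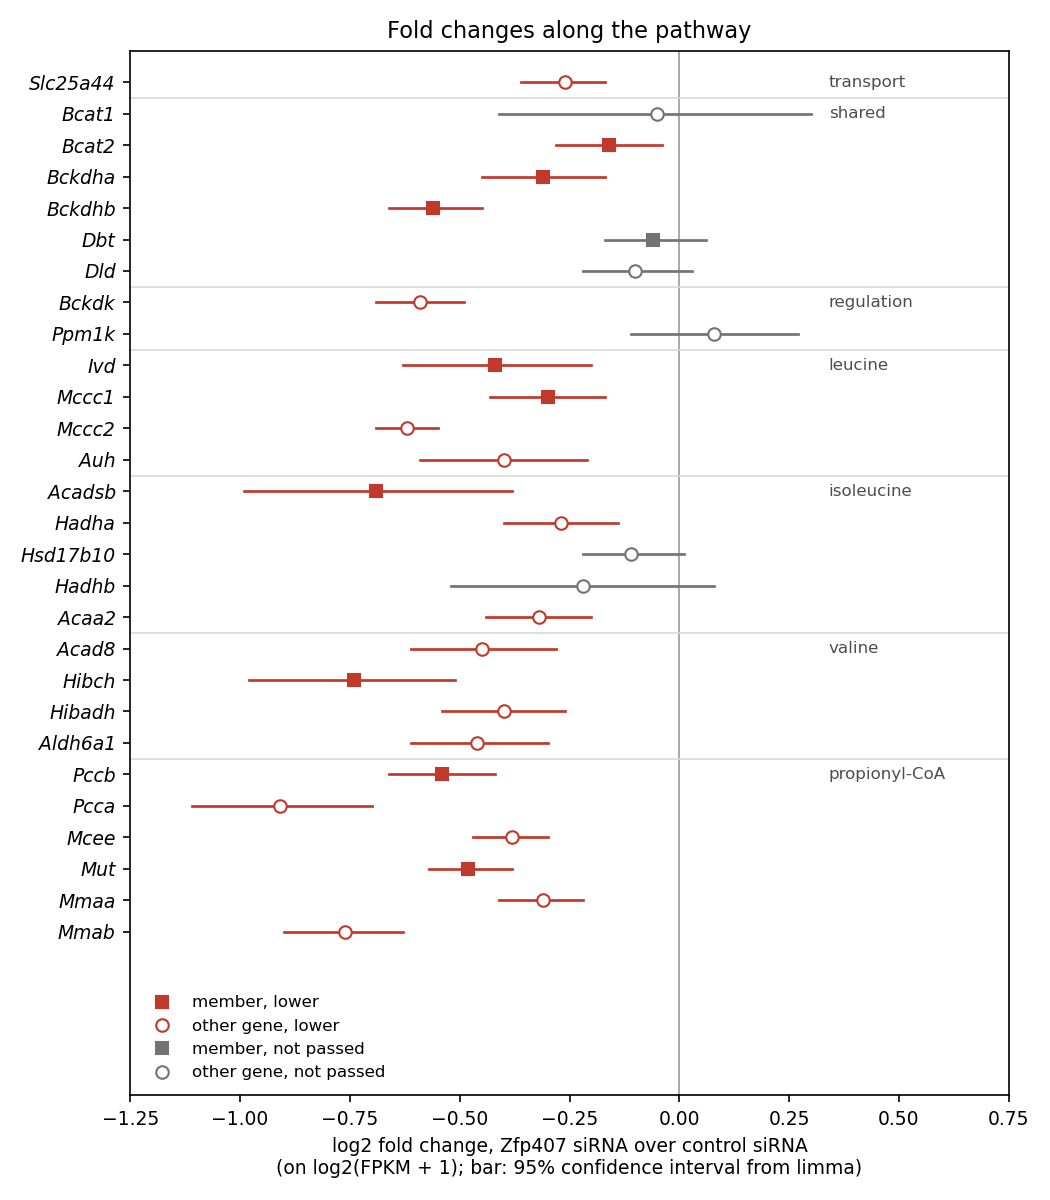
Log2 fold change of Zfp407 siRNA over control siRNA on log2(FPKM + 1), with 95% confidence intervals from limma, in pathway order and grouped by branch. Filled squares are the 10 genes, open circles 18 of the 19 other tested genes, and grey marks those that did not pass; no gene was called higher, and the intervals of Dbt, Dld, Bcat1, Ppm1k, Hsd17b10 and Hadhb cross 0.

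Related enzymes gave a background for the 10 genes. Beside the counts that follow, 24.8% of all rows tested were lower and 11.6% were higher. Of the acyl-CoA dehydrogenases and electron transfer flavoproteins, to which Ivd and Acadsb are related, 10 of 11 tested fell (median log2 fold change −0.33). The largest falls in that list were those of Acad12 (−0.91), Acadvl (−0.62) and Acad9 (−0.47), while Acads, named after its values were seen, had a log2 fold change of 0.00. Of the pyruvate and 2-oxoglutarate dehydrogenases, which are built like the branched-chain complex, and their kinases and phosphatases, 6 of 13 fell and Pdk4 rose, with a median of −0.17. Pdk1 (−0.68), Pdhb (−0.60) and Dlat (−0.58) fell most there. Dlat, the transacylase core of the pyruvate complex, thus fell while Dbt, its counterpart, did not pass. Of the list of carboxylases and cobalamin handling, 8 of 12 fell, led by Cd320 (−0.66), a receptor for cobalamin uptake, Acaca (−0.59, in a row the authors marked as failed) and Pcx (−0.45). Adipocyte markers went both ways, with 5 lower and 1 higher among 12 tested (median −0.08). Of the preadipocyte and fibroblast markers 2 of 10 tested were lower (median −0.05), near the share of all rows.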

How the data were processed

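RNA of 12 libraries was sequenced by the submitters. The deposited table holds FPKM values per library, made by the authors. The submitters' processing notes name Cufflinks 2.0.2, TopHat2 2.0.5, SAMtools 0.1.18.0 and Bowtie2 2.0.0.7, without order or settings; the build and the annotation were not given in the sources used here. The authors' table also holds their log2 fold change and their p-value and q-value. Of 18473 rows with a protein-coding GENCODE M21 symbol, 99.6% overlapped that gene on GRCm38. Rows with no gene name (3036) stayed in the tests.

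limma 3.58.1 (R 4.3.3, intensity trend, two-sided) was run on log2(FPKM + 1) for the 14706 rows averaging 1 FPKM or more; fold changes are on that scale, which understates those of low genes. Only the limma fit was tested on simulated data, with independent rows and no difference between the arms in the worth of 1 read. The exact permutation tests used scipy 1.17.1. Depth is unknown, since FPKM holds no read totals. The control columns carry their sample's number, and the knockdown columns name no sample. Libraries of an arm were distinct (highest correlation 0.981). All 10 genes, partners, regulators and up to 8 further genes of the pathway, and up to 3 of each related list, were named by rule, by size of change among those called; 1 of these is counted but not reported here. Genes and lists were chosen with earlier results of these data known. Alternatives were other pseudocounts, filters and scalings, limma without trend, a minimum fold of 1.2 and leaving out each library.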

Additional observations from a re-analysis of the deposited data

Results flagged for a closer look

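Of 100 groups of 6 libraries looked at, 7 held a library far from the other 5, where chance gives about 1 in 20. Control library 6 was high for Dbt (36.8 FPKM, the other controls at most 31.8) and low for the log2 ratio of Bckdha to Dbt (1.10, the others at least 1.38). It was also high for the log2 ratio of Bcat2 to Bcat1 (6.27, the others at most 5.56). Control library 4 was low for Acaa2 (76.7 FPKM, the others at least 83.1). Control library 2 was low for Acad9 (82.7 FPKM, the others at least 95.1) and high for Slc43a2 (12.8 FPKM, the others at most 10.6). Knockdown library 4 was high for Acaca (46.4 FPKM, the others at most 28.0), in a row that the authors marked as failed.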

How the results depend on the processing

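The direction of all 10 genes was the same in each of the 21 alternatives. Against a fold of 1.2, 4 of the 10 genes, 4 other pathway genes and 856 rows were called. Without mitochondrial and short-RNA rows, with libraries rescaled, 3569 rows were called and 8 of the 10 genes; the cause was not tested. Leaving out each library in turn, 8 to 9 of the 10 genes, 14 to 15 other pathway genes and 4782 to 5517 rows were called. Over these, the difference ranged from −0.53 to −0.48 for Bckdhb to Dbt, from 0.22 to 0.27 for Bckdha to Bckdhb, from −0.31 to −0.23 for Bckdha to Dbt, from −0.73 to −0.61 for Bckdk to Ppm1k, from 0.28 to 0.34 for Mccc1 to Mccc2 and from 0.33 to 0.45 for Pccb to Pcca, and these 6 ratios stayed past the threshold. That of Bcat2 to Bcat1 ran from −0.19 to 0.04 and never passed. Among the 10 genes, the call of Bcat2 was lost in 12 alternatives, and those of Acadsb, Bckdha, Ivd and Mccc1 in 1 each, that against a fold of 1.2. No paired analysis was possible because the knockdown columns do not carry the sample numbers of the labels. Depth limits what can be said of Ehhadh and Abat, which were too low to test with the filter at a mean of 1 FPKM.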

Other observations

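Neighbouring steps were measured too. Beside the counts in this section, 24.8% of all rows tested were lower and 11.6% were higher. Among carriers that can bring branched-chain amino acids across the plasma membrane, 3 of 5 tested fell and Slc3a2 rose. Slc43a2 averaged 6.29 ± 0.591 FPKM in knockdown and 10.6 ± 1.18 FPKM in control libraries (SD, n = 6 each; log2 fold change −0.67, limma adjusted p = 2.4e-05), and Slc43a1 and Slc38a2 had log2 fold changes of −0.40 and −0.20. Slc25a44, the mitochondrial carrier, named after its values were seen, had a log2 fold change of −0.26 (limma adjusted p = 6.87e-04). Slc3a2, the heavy chain of several amino acid exchangers, averaged 62.9 ± 4.59 FPKM in knockdown and 55.4 ± 3.19 FPKM in control libraries (log2 fold change 0.18, limma adjusted p = 0.0198). Its row shares a locus with 8 others, and it did not pass against a fold of 1.2. Changes of the size of those of Slc3a2 and Slc38a2 cannot be told apart from the difference between the arms in the worth of 1 read.

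Downstream, 4 of 5 tested genes of succinyl-CoA and ketone body steps fell. Suclg2 and Sucla2, subunits that make succinate from succinyl-CoA, had log2 fold changes of −0.48 and −0.42, and Oxct1, which uses succinyl-CoA to activate acetoacetate, had −0.33. Suclg1, of the same list and named after its values were seen, did not pass (log2 fold change −0.01, limma adjusted p = 0.907). Of 7 regulators 3 fell, Rptor (−0.39), Klf15 (−0.32) and Sesn2 (−0.16), none of them past a fold of 1.2. The calls of Sesn2 were lost in several alternatives, among them centring (adjusted p = 0.0869).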
